A study of Homo sapiens with 8 samples.

Results

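The 10 named subunits of the CCR4-NOT complex were followed at the transcript level in SW480, a long-established line from a human colorectal adenocarcinoma, after transcription had been blocked with alpha-amanitin. Members were every RefSeq accession listed by the authors that pairs with CNOT1, CNOT2, CNOT3, CNOT4, CNOT6, CNOT6L, CNOT7, CNOT8, CNOT10 or CNOT11. All 10 genes had a listed transcript, and 25 of the 22468 transcripts in either table belonged to them. The control table held 25 of these among 21328 transcripts, the RBMS1 shRNA table held 23 among 20474, and the same 23 were among the 19334 in both. The 8 libraries formed 4 groups of 2, all of them SW480 cells carrying a stably expressed shRNA. They were control shRNA at 0 h without the toxin, control shRNA at 9 h with 10 µg/mL alpha-amanitin, RBMS1 shRNA at 0 h without it and RBMS1 shRNA at 9 h with 10 µg/mL. The series text lists 2 shRNA clones against RBMS1 and the sample protocols name 1, so whether the knockdown libraries hold 1 clone or a pool is unclear. The labels do not say whether both libraries of a group are separate cultures, and ratios within a cell population give no check of how much RBMS1 was left. The series text also calls SW480 a breast cancer line. Of the colon epithelial markers looked up, 8 of 10 were listed in the tables, EPCAM, CDH1, KRT8, KRT18, KRT20, VIL1, CDX2 and ASCL2, while CDX1 and LGR5 were not. Of 14 markers of blood, vessel, stromal, liver and breast cells, CD68 and LYZ were listed, and the breast markers ESR1 and SCGB2A2 were not. Being listed gives no expression level and does not settle the cell type.

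CCR4-NOT is the main deadenylase of the cytoplasm. It shortens the poly(A) tail of mRNAs, usually the slow step before decapping and decay, and it is brought to its targets by proteins such as Pumilio, tristetraprolin, the TNRC6 partners of microRNAs and the TOB and BTG adaptors. CNOT1 is the scaffold on which the other subunits assemble. CNOT2 and CNOT3 form its NOT module, CNOT10 and CNOT11 bind its N-terminal part, and CNOT4 is a RING-type ubiquitin ligase that associates loosely with the human complex. The nuclease activity lies in a CCR4-type subunit, CNOT6 or its paralog CNOT6L, and a CAF1-type subunit, CNOT7 or its paralog CNOT8. The mRNAs of the complex are themselves subject to decay, and these data describe how their levels moved during the block, not how the enzyme acted. RBMS1 and its paralogs are RNA-binding proteins known to prefer AU-rich sites.

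Each value is the authors' log2 fold change of 9 h over 0 h for 1 transcript in 1 cell population. It is negative where the level at 9 h was lower. The median over all listed transcripts was −0.04 in control and −0.03 in RBMS1 shRNA cells despite the block. Levels are therefore read relative to the other transcripts, not as absolute amounts. The authors combined the libraries, so that each transcript has 1 value. Depth and the spread between libraries are therefore unknown, no error can be attached to any value, and no difference below was tested. In bulk RNA, fewer cells and less RNA per cell cannot be told apart. Transcripts of 1 gene share exons and reads, so they are not independent measurements.

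The sequences shown are matches to ATATA, a core preferred by RBMS proteins, in the annotated 3′UTRs. These were read from GENCODE release 29 transcript models on GRCh38, on the sense strand, with overlapping matches counted singly. Binding was not examined, and a link of matches to the differences was not tested. Each model was the first by identifier among those that GENCODE pairs with the transcript. Likeness of structure was not compared. Of 17679 annotated 3′UTRs of listed coding transcripts, 52.4% held at least 1 match, with a median length of 819 nt. TGTANAT, the core bound by Pumilio proteins, was in 42.3% of them and TATTTAT, the core of AU-rich elements, in 28.1%. The sites below are a selection, 1 or 2 per gene, from the scaffold CNOT1, the NOT-module subunit CNOT2, both CCR4-type nucleases and CNOT10, so that their sequence context can be seen. CNOT4, CNOT7, CNOT8 and CNOT11 also hold matches, which are given below by number or position. Each is written in the direction of the mRNA, and capitals mark the match.
CNOT1 site at 670 nt: gtcagctctttATATAaagggaaacca
CNOT1 site at 754 nt: aaacagtgggaATATAggaaagggaac
CNOT2 site at 748 nt: gtgtatatattATATAtatgacatcta
CNOT2 site at 820 nt: gcatggatgcaATATAtgaaaatggga
CNOT6 site at 138 nt: atttgataaggATATAgtatgaaagcc
CNOT6L site at 534 nt: cataaactatgATATAgcctctataca
CNOT6L site at 2833 nt: catatatatatATATAttcaatgaaag
CNOT10 site at 226 nt: gccattatgtaATATAtgccataggca
Positions count from the first base after the stop codon. The capitals lie in 3′UTR exons at chr16:58520284-58520288 and chr16:58520200-58520204 for CNOT1 (minus strand), chr12:70354663-70354667 and chr12:70354735-70354739 for CNOT2 (plus strand), chr5:180574338-180574342 for CNOT6 (plus strand), chr4:77719893-77719897 and chr4:77717594-77717598 for CNOT6L (minus strand) and chr3:32773837-32773841 for CNOT10 (plus strand). The CNOT6L site at 2833 nt is part of an AT repeat that alone accounts for 6 overlapping matches, those starting at 2823, 2825, 2827, 2829, 2831 and 2833 nt.

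In control cells most subunit mRNAs were lower at 9 h than at 0 h. Of the 25 member transcripts, 19 lay below 0, against 52.4% of all listed transcripts. At −1 or below, a 2-fold lower relative level, lay 7 of 25, where 13.8% of all transcripts did. At 1 or above lay 2 of 25, where 8.32% did. The median over the 10 genes, each taken as the mean of its transcripts, was −0.48, beside −0.07 over 13091 genes. Those 7 were 2 transcripts of CNOT1, 1 of CNOT4, both of CNOT6L and 2 of CNOT8, and the 2 high ones belonged to CNOT8 and CNOT10. With each gene at its least changing transcript that median of −0.48 was −0.18, and relative to ribosomal protein mRNAs it was −0.89. In RBMS1 shRNA cells the median over genes was nearer 0, while single transcripts went either way. Of the 23 shared member transcripts, 13 were nearer 0 than in control cells and 10 farther from it, where 50.3% of all shared transcripts were nearer. Below 0 were 13 of 23 transcripts, against 52.1% of all, 4 of 23 were at −1 or below, where 12.9% of all were, and 2 of 23 were at 1 or above, where 8.65% were. The median over the 10 genes was −0.03, beside −0.05 over 12786 genes. It turned to 0.050 with the least changing transcripts and was −0.42 relative to ribosomal protein mRNAs.

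**Figure D1:**
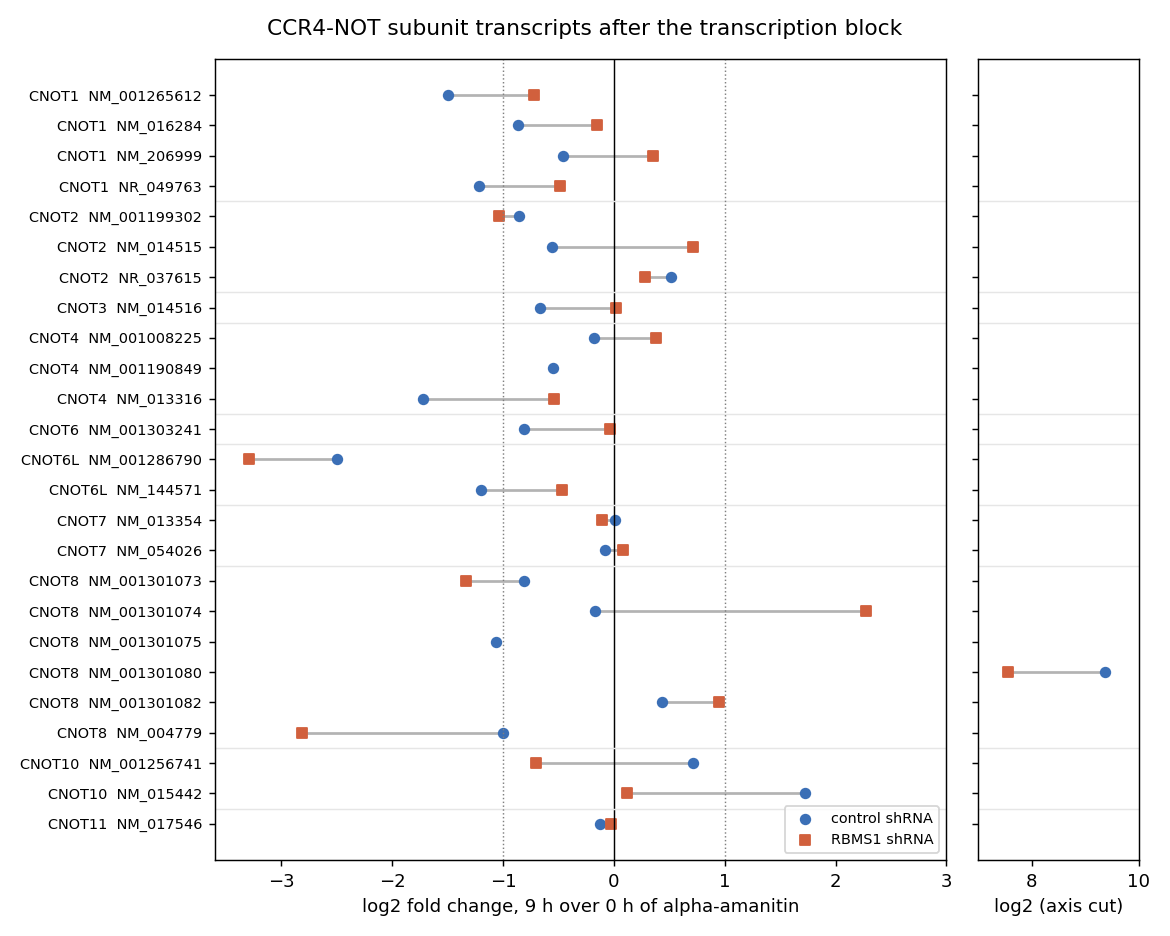
Log2 fold change of 9 h over 0 h of alpha-amanitin (x axis, with a separate panel for values from 7 to 10) for each of the 25 member transcripts, with control shRNA cells as blue circles, RBMS1 shRNA cells as orange squares and a grey line joining the pair. The 4 CNOT1 transcripts keep their order and shift to the right together, CNOT10 shifts to the left, and CNOT8 transcripts point in different directions. Each point is 1 deposited value without an error.

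The scaffold CNOT1 (chromosome 16, 58519951 to 58629826, GRCh38.p14) had the most uniform pattern. In the authors' deposited table for control cells its transcripts NM_001265612, NM_016284, NM_206999 and NR_049763 were at −1.49, −0.87, −0.46 and −1.22. In the authors' deposited table for RBMS1 shRNA cells they were at −0.72, −0.15, 0.36 and −0.49, each higher than in control cells and in the same order. For the long coding form NM_016284 the control value equals a relative level at 9 h of 0.549 of that at 0 h. The value in RBMS1 shRNA cells equals a relative level of 0.901. The centred differences, RBMS1 shRNA minus control with the median over all shared transcripts (−0.02) set to 0, were 0.79, 0.73, 0.83 and 0.75, with a mean of 0.78.

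These 4 accessions differ in structure. NM_206999 matches a short model of 31 exons with a 3′UTR of 58 nt, while NM_016284 and NM_001265612 match models of 49 exons with 3′UTRs of 1007 and 263 nt, the shorter of which is the beginning of the longer. NR_049763, non-coding in RefSeq, matches a model of 50 exons that GENCODE classes as a target of nonsense-mediated decay. Among the coding transcripts, only the 1007-nt 3′UTR holds ATATA, with 2 matches, and the 58-nt and 263-nt ones hold none. Of 3′UTRs within 10% of 1007 nt, 59.7% hold at least 1 match. The model of the non-coding transcript was not searched. The differences of the 4 transcripts lay within 0.0973 of each other. Among the 320 genes with exactly 4 transcripts in both tables this was the smallest range, and the median range was 2.48. In 3 of these 320 genes (0.938%), CNOT1 included, all 4 transcripts lay at 0.5 or above, a limit chosen after the values were seen.

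CNOT2 (chromosome 12, 70243018 to 70354993), a NOT-module subunit, had transcripts that disagreed. The coding transcript NM_014515 was at −0.56 in control and 0.72 in RBMS1 shRNA cells in the authors' deposited tables. The other coding transcript, NM_001199302, was at −0.85 and −1.04, and the non-coding NR_037615 at 0.52 and 0.28, in the authors' deposited tables. Centred differences were thus 1.30, −0.17 and −0.22, and the first stood apart from the others. The 3′UTRs of both coding transcripts are identical over 1077 nt and hold the same 4 ATATA matches. Among 3′UTRs of similar length to that of NM_014515, 61.2% held a match and the median number was 1. Their models differ upstream, with 16 exons and a 5′UTR of 582 nt for NM_014515 and 17 exons and 451 nt for NM_001199302.

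CNOT3 (chromosome 19, 54137762 to 54155681), the partner of CNOT2, was listed with NM_014516 alone. It was at −0.66 in control and 0.02 in RBMS1 shRNA cells in the authors' deposited tables. At 0.70, its centred difference was close to the CNOT1 values. Its 3′UTR of 301 nt has no ATATA match. It holds 1 match to TATTTAT, which 11.8% of 3′UTRs within 10% of its length hold.

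CNOT4 (chromosome 7, 135361795 to 135510102), the ubiquitin ligase, was higher in RBMS1 shRNA cells in both shared transcripts. NM_013316 was at −1.72 in control and −0.54 in RBMS1 shRNA cells, and NM_001008225 at −0.18 and 0.38, in the authors' deposited tables. NM_001190849, at −0.55, was listed in the authors' deposited table for control cells alone. The centred differences were 1.20 and 0.58, with a mean of 0.89, the highest gene mean of the 10. NM_001008225 matches a model with a 3′UTR of 2643 nt and 7 ATATA matches. Among 3′UTRs within 10% of that length, 87.4% held a match and the median number was 4. The model paired with NM_013316 ends at its stop codon and gives no 3′UTR to search.

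Among the CCR4-type nucleases, CNOT6 (chromosome 5, 180494379 to 180578358) was listed with NM_001303241 alone. Its values were −0.81 in control and −0.03 in RBMS1 shRNA cells in the authors' deposited tables, and the centred difference was 0.80. The 3′UTR of 4205 nt has 9 ATATA matches and 5 to TGTANAT, which 84.7% of 3′UTRs of similar length hold. The median number of ATATA matches among 575 3′UTRs within 10% of that length was 7.

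The paralog CNOT6L (chromosome 4, 77713387 to 77820269) had the lowest gene means of the 10, −1.85 in control and −1.88 in RBMS1 shRNA cells, below all but 2.93% and 2.52% of genes. NM_144571 was at −1.20 in control and −0.47 in RBMS1 shRNA cells, and NM_001286790 at −2.49 and −3.29, in the authors' deposited tables. NM_144571 thus had a centred difference of 0.74, alongside CNOT1, CNOT3 and CNOT6, and NM_001286790 one of −0.78, so that the gene mean of −0.02 describes neither. Both match models of 12 exons with an identical 3′UTR of 7044 nt and its 28 ATATA matches, where 190 3′UTRs within 10% of that length had a median of 13. Their coding lengths are 1665 nt for NM_001286790 and 1650 nt for NM_144571.

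**Figure D2:**
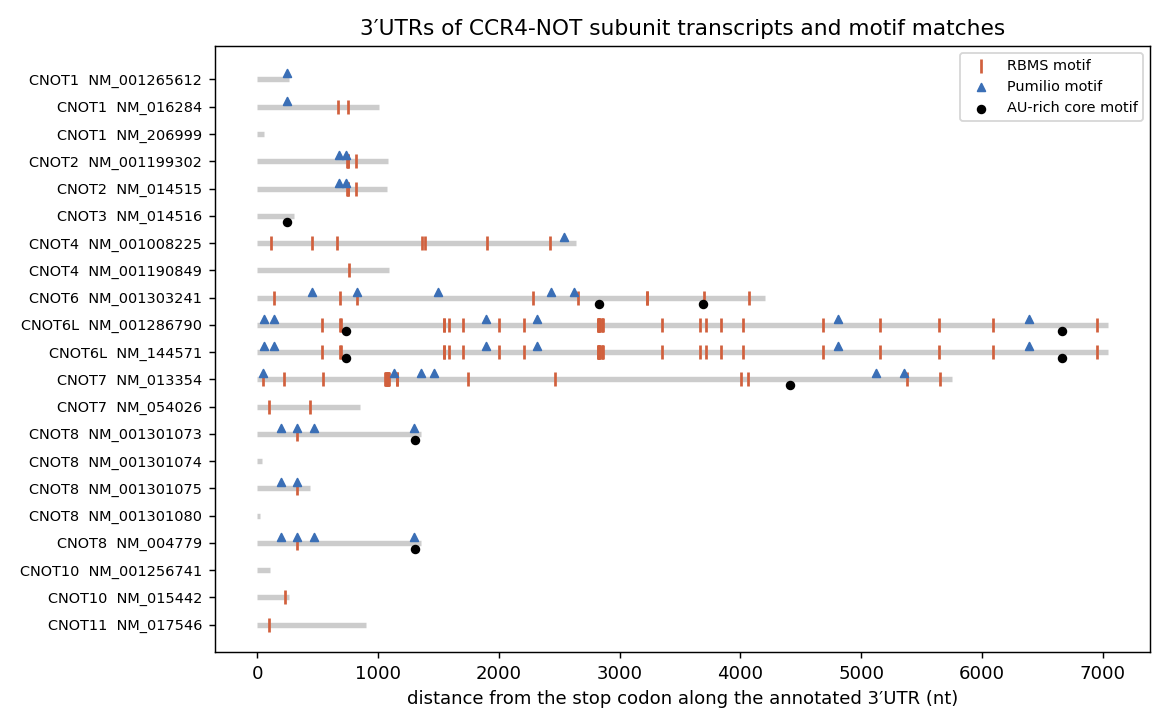
Annotated 3′UTRs (grey bars, distance from the stop codon in nt on the x axis) of the coding member transcripts that have one, with matches to the RBMS motif as orange ticks, the Pumilio motif as blue triangles and the AU-rich core as black circles. Accessions that match the same GENCODE model are drawn once. CNOT6L carries 28 RBMS matches in 7044 nt, and the searched short 3′UTRs of CNOT1, CNOT8 and CNOT10 carry 1 RBMS match or none. The 19-nt 3′UTR of CNOT8 was not searched.

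The CAF1-type nuclease CNOT7 (chromosome 8, 17224966 to 17246857) had values near 0 in both cell populations. Its transcripts NM_013354 and NM_054026 were at 0.01 and −0.08 in control and −0.10 and 0.08 in RBMS1 shRNA cells in the authors' deposited tables. Centred differences were −0.10 and 0.19. The annotated 3′UTRs are unlike in length, 5756 nt with 21 ATATA matches for NM_013354 and 851 nt with 2 for NM_054026. Among 3′UTRs of similar length to that of NM_013354, 97.5% held a match and the median number was 9. For NM_054026 these values were 53.7% and 1.

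Its paralog CNOT8 (chromosome 5, 154858249 to 154876792) had 6 listed transcripts, the most of any member, and they spanned the widest range. NM_001301080 was at 9.38 in control and 7.56 in RBMS1 shRNA cells in the authors' deposited tables, near the limit of 10 within which every deposited value lies. NM_004779, with an annotated 3′UTR of 1353 nt, had −1.003 in control and −2.81 in RBMS1 shRNA cells in the authors' deposited tables. NM_001301073, with nearly the same 3′UTR, had −0.81 and −1.34 in the authors' deposited tables. In the other direction, NM_001301074 was at −0.17 in control and 2.28 in RBMS1 shRNA cells in the authors' deposited tables. NM_001301082 had 0.43 and 0.95 in the authors' deposited tables. NM_001301075 was in the authors' deposited table for control cells alone, at −1.07. Centred differences ran from −1.79 (NM_001301080 and NM_004779) through −0.51 (NM_001301073) and 0.53 (NM_001301082) to 2.47 (NM_001301074).

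The GENCODE models paired with the CNOT8 transcripts have long or short 3′UTRs. Whether the listed transcripts end where these models do was not tested. Models with 3′UTRs of 1353 and 1354 nt went with differences of −1.79 and −0.51. Models with 3′UTRs of 433, 39 and 19 nt went with 0.53, 2.47 and −1.79, so annotated length did not order the differences. The 19-nt one, of NM_001301080, was too short to be searched for motifs. All searched CNOT8 3′UTRs of 433 nt or more share 1 ATATA match at 330 nt and the Pumilio-type matches at 200 and 327 nt. Of 3′UTRs similar in length to the 433-nt one, 34.9% held an ATATA match and 20.7% a Pumilio-type match. For the 1353-nt one these values were 67.3% and 54.3%. NM_001301075 and NM_001301082 pair with the same GENCODE model, which cannot tell them apart. The coding single-transcript genes nearest to NM_001301074 in the plane of both log2 values were LY6G5C, C1R and C11orf45, at distances of 0.54, 0.73 and 0.75 over 2 conditions, a loose likeness. The mean over the 5 shared CNOT8 transcripts was 1.57 in control and 1.33 in RBMS1 shRNA cells, with NM_001301080 included, and the mean centred difference was −0.22.

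CNOT10 and CNOT11, which bind the N-terminal part of CNOT1, differed from each other. CNOT10 (chromosome 3, 32685188 to 32773875) stood on the other side of the group, high in control cells and near or below 0 in RBMS1 shRNA cells. NM_015442 was at 1.72 in control and 0.12 in RBMS1 shRNA cells, and NM_001256741 at 0.71 and −0.70, in the authors' deposited tables. Both centred differences were below −1, at −1.58 and −1.40, and lay 0.182 apart. Of the 2879 genes with exactly 2 shared transcripts, 12 had both at −1 or below (0.417%), and the median range was 0.761. A range as small as that of CNOT10 or smaller was found in 435 of the 2879 (15.1%). The shorter 3′UTR, 103 nt in NM_001256741, is the beginning of the longer, 264 nt in NM_015442, and the single ATATA match lies in the added part, and 19.8% of 3′UTRs within 10% of 264 nt hold a match. CNOT11 (chromosome 2, 101252886 to 101270316) was listed with NM_017546 alone. In the authors' deposited tables it had −0.12 in control and −0.02 in RBMS1 shRNA cells, and the centred difference was 0.12. Its 3′UTR of 903 nt holds 1 ATATA match, and 55.3% of 3′UTRs within 10% of that length hold at least 1.

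**Figure D3:**
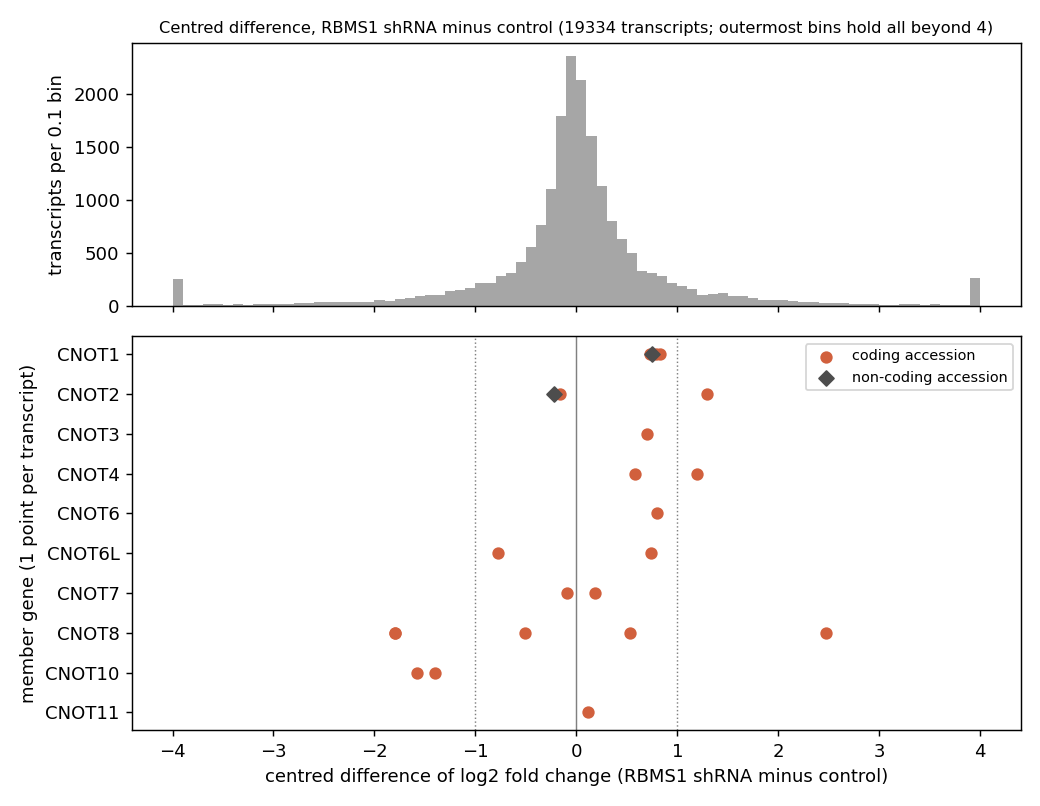
Upper panel, number of transcripts per 0.1 of centred difference (RBMS1 shRNA minus control, log2) over all 19334 shared transcripts; lower panel, the 23 member transcripts on the same axis, 1 row per gene, with dotted lines at −1 and 1. Transcripts of CNOT1, CNOT3, CNOT4 and CNOT6 and 1 transcript each of CNOT2 and CNOT6L lie between 0.58 and 1.30, both CNOT10 transcripts lie below −1, and CNOT7 and CNOT11 lie near 0.

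Across the complex, differences lay on both sides of 0. Of the 23 shared member transcripts, 3 had a centred difference of 1 or above, against 8.98% of all shared transcripts. At −1 or below were 4 of 23, against 8.65% of all. With a limit of 0.5, chosen after the values were seen, 12 of 23 were at 0.5 or above (17.5% of all) and 6 of 23 at −0.5 or below (16.1% of all). Counted by gene mean, 7 of 10 were above 0 (50.2% of 12480 genes), 4 of 10 at 0.5 or above (12.4%) and 1 of 10 at −0.5 or below (10.7%). None of the 10 was at 1 or above (4.89%), and CNOT10 alone was at −1 or below (4.16%). The median of the 10 gene means was 0.21, beside 0.00 over all genes. With the median over the transcripts of each gene it was 0.081, with coding accessions only 0.34 and with the least changing transcripts 0.35. CNOT1, CNOT3, CNOT4 and CNOT6 lay at 0.70 to 0.89. The remaining 6 lay at −1.49 to 0.30, a range that holds the value of 0.21.

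The sign of the fold change itself was the same in both cell populations for 15 of 23 member transcripts, 65.2%, and for 74.4% of all shared transcripts. Of the 7 members with several shared transcripts, 3 (CNOT2, CNOT6L and CNOT8) had a range of 1 or more among their differences, against 53.7% of 4407 such genes. The other 4, CNOT1, CNOT4, CNOT7 and CNOT10, had transcripts that lay on the same side of 0 or, for CNOT7, within 0.283 of each other.

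**Figure D4:**
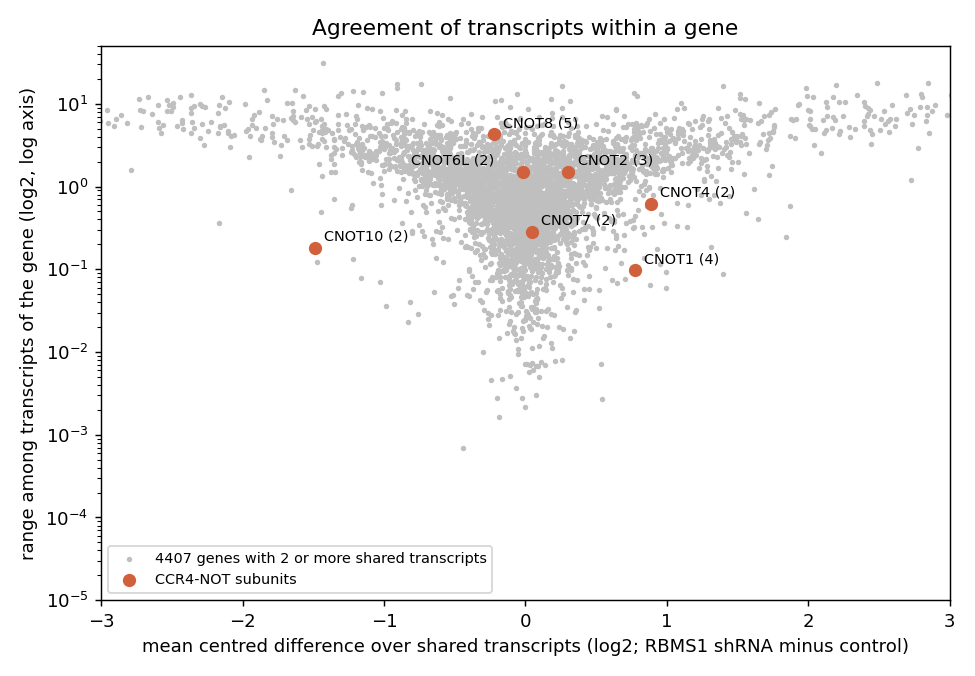
Range among the transcripts of a gene (y axis, log scale) against the mean centred difference (x axis, log2, RBMS1 shRNA minus control) for 4407 genes with 2 or more transcripts in both tables, with the 7 such CCR4-NOT subunits in orange and their number of shared transcripts in brackets. CNOT1 and CNOT10 lie away from 0 with small ranges, CNOT8 has a range of 4.26, and 135 genes with a mean beyond 3 in size lie outside the axis.

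The subunits and partners that act with the 10 members were taken from a list of 37 genes, all of them listed in the tables. It covers other subunits, other deadenylases, recruiting adaptors and the decapping steps that follow. In control cells 6 of 37 gene means were at −1 or below (10.7% of all genes) and 3 at 1 or above (4.84%). In RBMS1 shRNA cells 3 were at −1 or below (9.49%) and 3 at 1 or above (5.26%). The 3 high ones were CNOT9, PARN and DCP2 in control and TOB1, PARN and DCP2 in RBMS1 shRNA cells. The CNOT9 control mean of 1.18 was −0.09 over its shared transcripts. The medians over the list were −0.32 in control and −0.16 in RBMS1 shRNA cells. By the mean over shared transcripts, 25 of 37 partners were nearer 0 in RBMS1 shRNA cells and 12 farther from it, where 50.1% of all genes were nearer. Of the centred differences, 27 of 37 were above 0 (50.2% of all genes), 6 were at 1 or above (4.89%) and 0 at −1 or below (4.16%), with a median of 0.12. Among those 6, TOB1, ZFP36L2, PABPC1 and EIF4ENIF1 had 1 shared transcript each. The shared PAN2 transcripts lay at 2.60 and −0.15 and the DDX6 ones at 2.08 and 0.38.

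CNOT9, the remaining core subunit, had shared transcripts at 0.12 and −0.30 in control and −0.11 and −0.02 in RBMS1 shRNA cells in the authors' deposited tables. A further CNOT9 transcript, NM_001271634, was at 3.73 in the authors' deposited table for control cells alone. TNKS1BP1, a protein associated with the complex, had −0.50 in control and −0.24 in RBMS1 shRNA cells in the authors' deposited tables, and its centred difference was 0.28. Past 2-fold lower in both cell populations were BTG1, an adaptor of the CAF1-type subunits, at −1.09 and −1.72, NANOS1, which recruits the complex, at −1.43 and −1.41, and EIF4ENIF1, a translational repressor that binds eIF4E, at −4.58 and −3.27, in the authors' deposited tables. Past 2-fold higher in both were the gene means of the deadenylase PARN, 2.84 and 2.08, and of the decapping enzyme DCP2, 4.37 and 4.31. Each of those means rested on 1 transcript, NM_001242992 of PARN at 8.91 and 6.24 and NM_001242377 of DCP2 at 9.15 and 9.28 in the authors' deposited tables, while the other PARN and DCP2 transcripts lay between −0.65 and 0.43.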

How the data were processed

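Total RNA of 8 SW480 libraries, depleted of ribosomal RNA, was sequenced, per the labels' protocols. Per the file headers, the authors deposited a log fold change for each RefSeq accession, in 2 tables, 1 per shRNA. The submitters' processing notes name STAR 2.5, Cufflinks, Cuffdiff and hg38 without roles. The deposited values were taken as log2 because Cuffdiff writes log2. They were taken as 9 h over 0 h because MYC, FOS and JUN, known for rapid turnover, were negative in both tables. Neither the log base nor the direction is stated in the headers. In the authors' deposited tables MYC, FOS and JUN were at −1.44, −1.61 and −1.01 in control cells. In RBMS1 shRNA cells they were at −1.38, −1.24 and −0.81. How complete the block was by 9 h was not tested. The normalisation, and why transcripts were left out, is not given in the sources used here.

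Accessions were paired with symbols by the RefSeq gene table (GRCh38.p14, 22132 accessions) or else by GENCODE release 29 (205, the CNOT6 transcript among them), and 131 stayed without a symbol. Differences were centred on the median over all shared transcripts. 3′UTRs came from the GENCODE transcript model paired with an accession, with 20 nt or more. Members and lists were chosen with earlier results of these data known; the text names all members, CNOT9, TNKS1BP1 and partners past 2-fold in both tables. Counting was checked on simulated tables. Python 3.11.15, pandas 2.3.3, numpy 2.4.6 and matplotlib 3.10.9 were used. Alternatives were coding accessions only, extreme values left out, shared transcripts only, ribosomal protein mRNAs as reference, other summaries per gene, other centring and, added after the data were seen, leaving out CNOT8. Proteins of the subunits were not analysed here.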

Additional observations from a re-analysis of the deposited data

How the results depend on the processing

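No paired analysis was possible because the deposited tables hold no value per library, and for the same reason no library could be left out. Of 51 recomputed values, 34 stayed within 1.5 times for counts or 0.1 for medians, 16 moved further and 1 reversed. With coding accessions only, the control median of the member genes was −0.69 and the median difference 0.34. Without transcripts beyond 4 in size, 1 member transcript was at 1 or above in each table and the control median was −0.59. Relative to ribosomal protein mRNAs, where the median of all transcripts shifted from −0.04 to −0.45 in control and from −0.03 to −0.42 in RBMS1 shRNA cells, 12 control transcripts were at −1 or below and the medians were −0.89 in control and −0.42 in RBMS1 shRNA cells. With the median over transcripts the median difference was 0.081. With each gene taken at its least changing transcript it was 0.35, the control median was −0.18 and the median in RBMS1 shRNA cells turned to 0.050. Without CNOT8, 1 control transcript and 0 in RBMS1 shRNA cells were at 1 or above, 2 in RBMS1 shRNA cells were at −1 or below, 2 differences were at −1 or below and the control median was −0.66. The cause of the reversal was not tested. Depth is unknown, so transcripts with few reads cannot be recognised.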

Other observations

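Nearly all deposited values of 1 or more in size end in a 0 at the sixth decimal, as numbers written to 6 significant digits would. Of such values for control cells, 123 of 4717 (2.61%) do not, and of those for RBMS1 shRNA cells 111 of 4420 (2.51%) do not. NM_004779 of CNOT8 is among them in both tables and NM_015442 of CNOT10 in the control table. How those values were made is not given in the sources used here, and their part in the differences of CNOT8 and CNOT10 was not tested.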
